A study of Mus musculus with 12 samples.

Results

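Plekhh2 encodes a large cytoplasmic protein named for its pleckstrin homology, MyTH4 and FERM domains. It was taken as the single subject here because, among the 25428 probe sets measured in the embryonic striatum, it showed the largest rise past the test's threshold in the Foxp1 knockout, so it was selected on its own change. Its probe set, 213556_at, is 1 of the 25428. Arrays were run on the striata of 12 embryos taken at embryonic day 18.5, each embryo on an array of its own. The 6 wild-type (WT) embryos and the 6 embryos labelled Nestin-Cre (Foxp1-/-), called cKO here, had the C57BL/6J background in common. Nestin-Cre is active in neural progenitors, so in this model recombination is expected in neurons and glia of the whole central nervous system and not in the striatum alone. The labels do not say whether the WT embryos carried Cre or a floxed allele, and they describe the samples of a group as biological replicates. All levels are RMA values on the log2 scale, on which a difference of 1 is a doubling.

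In Plekhh2 and its relatives, the pleckstrin homology domains bind membrane lipids, while the MyTH4 and FERM domains, a pair shared with several unconventional myosins, bind microtubules, membrane proteins and actin. Plekhh2 is best known from the kidney podocyte, where it lies in the foot processes and binds actin and the focal adhesion protein Hic-5. The related worm protein MAX-1 acts in the guidance of motor axons. Foxp1, a forkhead factor of striatal projection neurons, acts largely as a transcriptional repressor, and forkhead factors of this group recognise the core TGTTTA.

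The bases just before the gene start are shown for Plekhh2 and for Dlk1, the other large rise that returns below as a follower of Plekhh2. Both come from RefSeq (assembly GRCm38.p6), are written 5′ to 3′ on the gene's own strand (+ for both) and end at the base before the annotated start. Capitals mark the forkhead core TGTTTA or its reverse complement TAAACA. The Plekhh2 stretch is chr17:84511645-84511894 and the Dlk1 stretch is chr12:109452573-109452822.
Plekhh2: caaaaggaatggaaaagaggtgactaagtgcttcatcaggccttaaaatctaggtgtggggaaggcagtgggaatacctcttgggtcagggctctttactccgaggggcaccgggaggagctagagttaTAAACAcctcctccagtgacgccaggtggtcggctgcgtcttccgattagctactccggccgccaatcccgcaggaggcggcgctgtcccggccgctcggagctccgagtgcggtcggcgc
Dlk1: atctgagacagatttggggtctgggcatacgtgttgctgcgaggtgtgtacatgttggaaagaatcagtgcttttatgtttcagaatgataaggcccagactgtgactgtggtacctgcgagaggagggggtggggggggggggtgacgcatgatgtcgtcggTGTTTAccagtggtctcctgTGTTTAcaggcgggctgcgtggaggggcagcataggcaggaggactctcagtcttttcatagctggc
Plekhh2 had 1 core match, whose first base lay 121 bases before the start, and Dlk1 had 2, at 87 and 67 bases. The GC content was 60.0% and 54.8%. Neither relative, Plekhh1 or Plekhh3, had a match in its own 250 bases. The motif was found in 12.03% of all 32851 promoter stretches of this length, in 5 of 50 genes higher in cKO and in 8 of 78 genes lower in cKO. A match of these letters describes the sequence and does not show a bound site.

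Plekhh2 was higher in every cKO striatum than in any WT striatum. WT replicates 1 to 6 read 6.61, 6.69, 6.31, 6.48, 6.28 and 6.29 log2 units. The cKO replicates 1 to 6 read 7.47, 7.13, 7.48, 7.28, 7.42 and 7.46. WT replicates 1 and 2 were the highest of their group, cKO replicate 2 was the lowest of its own, and 0.44 log2 units separated that array from the highest WT array.

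The WT embryos averaged 6.44 ± 0.18 (SD, n = 6), against 7.37 ± 0.14 (SD, n = 6) for the cKO embryos. Their difference was 0.93 ± 0.09 (SE) log2 units with a 95% interval from 0.74 to 1.12, which is 1.91-fold (1.67 to 2.17). The difference was 5.80 times the pooled SD within groups. Because the gene was chosen by this value, the difference is a description and no test is attached to it. The interval makes no allowance for that choice, which favours values that are too large. Across all probe sets limma called 185 (0.728%) at an adjusted p of 0.05, of which 76 (0.299%) were higher and 109 (0.429%) lower in cKO. The value for Plekhh2 lay between 0.859 and 0.980 in 19 other processings. It was 0.980 without cKO replicate 2, and 0.859 when WT replicates 3 and 6, whose profiles resembled those of their group least, were both left out.

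**Figure D1:**
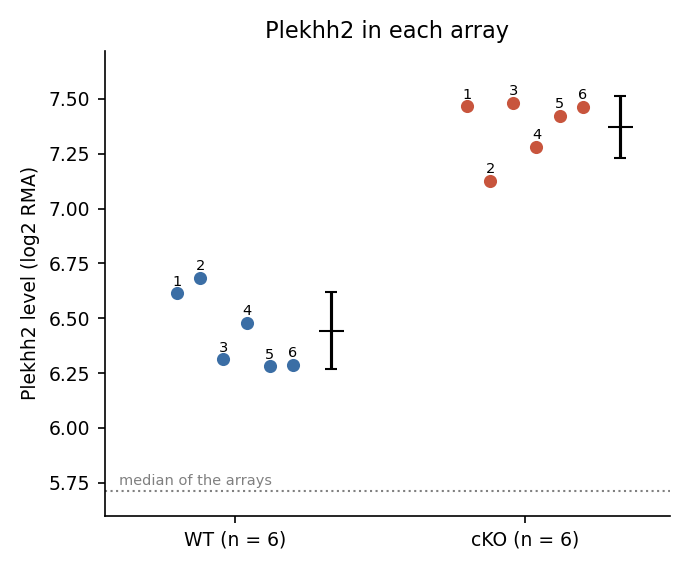
Plekhh2 level (RMA, log2) on each of the 12 arrays, with 1 numbered point per embryo, the mean and SD of each group and the array median as a dotted line. The 6 WT points lie between 6.28 and 6.69 and the 6 cKO points between 7.13 and 7.48, with no overlap.

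In both groups Plekhh2 was expressed above the middle of the array. The array median was 5.71, and the WT embryos lay 0.57 to 0.97 and the cKO embryos 1.41 to 1.77 log2 units above it. It was also a variable transcript: its SD exceeded that of 95.4% of probe sets in WT and of 96.3% in cKO. The median SD of probe sets above the median level was 0.0897 in WT and 0.0710 in cKO. In dissected tissue, a change in the share of cells that express a gene and a change in RNA per cell cannot be told apart.

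Foxp1 checks the group labels. WT embryos read 10.89 to 11.39 and cKO embryos 10.14 to 10.36, a change of -0.91 ± 0.07 (limma adjusted p = 0.000170), and the groups did not overlap. The fall was 1.88-fold, and the lowest cKO array still lay 4.43 log2 units above the array median, so much of the probe set's signal remained. Which exons were deleted and where the probes lie is not given in the sources used here. Foxp1 and Plekhh2 thus differed between groups by similar amounts in opposite directions, while within a group no relation between them was detected. Among the 6 WT embryos r was -0.053 (exact permutation p = 0.914) with a rho of 0.143 (exact permutation p = 0.803). Among the 6 cKO embryos r was 0.082 (exact permutation p = 0.860) and rho was 0.029. Without the 2 arrays farthest from the median Plekhh2 level r was 0.25 in WT and -0.59 in cKO. Of the other Foxp genes 0 passed: the differences were 0.11 ± 0.04 for Foxp2, -0.31 ± 0.09 for Foxp4 and -0.02 ± 0.02 for Foxp3. The WT embryo with the most Foxp1, replicate 6 at 11.39, had a Plekhh2 level of 6.29, and that with the least Foxp1, replicate 5 at 10.89, had 6.28. With only 6 embryos a group, these intervals are wide: the common slope of Foxp1 on Plekhh2 was -0.01, with a 95% interval from -0.59 to 0.56.

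Tissue and sex markers were read beside Plekhh2 on the same arrays. The mean of 3 Y-linked genes was 5.34 to 5.40 on WT replicates 3 and 4 and on cKO replicates 2, 3 and 5, and 7.32 to 7.71 on the other arrays. In each of these sets the cKO embryos lay above the WT embryos for Plekhh2: 7.13, 7.48 and 7.42 against 6.31 and 6.48 where the Y-linked genes were low, and 7.47, 7.28 and 7.46 against 6.61, 6.69, 6.28 and 6.29 where they were high. Adding the Y-linked mean to the fit gave a Plekhh2 difference of 0.94. Only 1 probe set had a larger positive mean difference than Plekhh2, that of Xist, the RNA that coats the inactive X chromosome (1.08 ± 1.72, limma adjusted p = 0.877). The lowest and highest Xist levels were 5.47 and 11.60 on the WT arrays and 5.49 and 11.62 on the cKO arrays.

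Projection neuron markers, which define the labelled tissue, were high in both groups: the mean over 24 of them was 8.96 to 9.21 among WT embryos and 8.87 to 9.01 among cKO embryos. In this list 0 genes rose and 3 fell, Foxp1, the transcription factor gene Ikzf1 (-0.59 ± 0.07) and Pde10a, a phosphodiesterase gene (-0.59 ± 0.09). Over all probe sets 0.299% were higher and 0.429% lower. Foxp1 is the gene knocked out, so its fall was set by the design, and it is part of the mean. In this list 10 of the 24 genes had a positive difference, and the median was -0.136. Markers of cortical glutamatergic neurons, which border the dissected tissue, averaged 6.35 to 6.67 in WT and 6.39 to 6.87 in cKO. All 14 of them had a positive difference, beside 12400 of 25427 over all probe sets but Plekhh2, and 1, Tle4, passed the test. Tle4 averaged 9.65 in WT and 9.93 in cKO, far above the mean of its list on every array. With the cortical mean as a covariate the Plekhh2 difference was 0.97; the part of cortical cells in it was not tested. The same covariate ended the call of Pde10a (limma adjusted p = 0.0569) but not that of Ikzf1 (0.0322), and with replicate numbers entered as blocks in the fit (the replicate block) both had 0.0718. Within groups, Plekhh2 had an r with the cortical mean of -0.003 in WT (exact permutation p = 0.997, rho -0.143) and -0.385 in cKO (exact permutation p = 0.486, rho -0.429).

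Markers of the other cell types that a striatal dissection can hold gave the calls listed here. Over all 25428 probe sets, 0.299% were higher in cKO and 0.429% lower. Of 9 direct-pathway neuron markers 1 rose, the zinc finger gene Zfp521 (0.58 ± 0.09, limma adjusted p = 0.0153), and of 6 indirect-pathway markers 0 passed. Only 2 of the 9 direct-pathway markers had a positive difference, with a median of -0.077 and a lowest value of -0.553. Of the 6 indirect-pathway markers, 4 were positive, with a median of 0.099. Zfp521 missed the threshold without WT replicates 3 and 6 (limma adjusted p = 0.0904), with the cortical mean as a covariate (0.0567) and under the replicate block (0.120). The 11 markers of interneurons born in the medial ganglionic eminence gave 1 rise, in the transcription factor gene Maf, and 1 fall, in Cxcr4, a chemokine receptor gene. The mitotic kinase gene Aurkb rose among 24 cell cycle genes, all 24 of which had a positive difference (0.035 to 0.362, median 0.124). Over all probe sets but Plekhh2, 12400 of 25427 had a positive difference. Prkcd fell among 10 genes of pallidal, septal and thalamic neighbours. In the lists of ganglionic eminence progenitors, radial glia, astrocytes, the oligodendrocyte lineage, microglia, endothelial cells and pericytes, meninges, choroid plexus and ependyma, and erythroid cells, 0 genes passed. Maf, Cxcr4, Aurkb and Prkcd each lost their call in some alternatives, passing in 19, 11, 13 and 6 of 21. The part of these cells in the Plekhh2 value was not tested.

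Neither close relative of Plekhh2 passed the test. Plekhh1 averaged 5.49 in WT and 5.54 in cKO, a difference of 0.05 ± 0.02 (limma adjusted p = 0.389). Plekhh3 averaged 5.53 and 5.52, a difference of -0.01 ± 0.01 (limma adjusted p = 0.779). Both lay below the array median of 5.71, where RMA leaves little room to see a change.

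The 4 myosins with the same MyTH4 and FERM pair did not pass either. The differences were 0.09 ± 0.03 for Myo7a, a motor of sensory hair cells, 0.02 ± 0.05 for Myo10, a motor of filopodia, -0.01 ± 0.01 for Myo7b of the brush border and -0.02 ± 0.01 for Myo15, a motor of hair cell stereocilia. Myo7b and Myo15 were near the floor of the array, at 5.49 and 5.51 in WT. Among 6 measured MyTH4-FERM genes other than Plekhh2, 0 were higher and 0 lower, and the median difference was 0.004, beside -0.001 over all probe sets.

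In the wider FERM-domain family, 45 genes besides Plekhh2 were measured, of which 1 rose and 2 fell. Over all probe sets 0.299% were higher and 0.429% lower. Their median difference was 0.009, and 25 of the 45 were positive, beside 12400 of 25427 over all probe sets but Plekhh2. Frmd6, a regulator of Hippo signalling, fell by 0.53 ± 0.08 on the log2 scale (limma adjusted p = 0.00859). Its WT levels were 6.69, 6.73, 6.80, 6.66, 6.73 and 7.18, all above the cKO levels of 6.16 to 6.33. Frmpd4, a synaptic scaffold gene, fell by 0.15 ± 0.03 (limma adjusted p = 0.0409), and Ptpn13, a tyrosine phosphatase gene, rose by 0.08 ± 0.02 (limma adjusted p = 0.0426). Frmpd4 and Ptpn13 passed in 9 and 5 of 21 alternatives. Frmd6 passed in 19, and missed the threshold with the cortical mean as a covariate (limma adjusted p = 0.0567) and under the replicate block (0.0701). Among 30 other genes with a Plekh name, Plekhh1 and Plekhh3 included, 0 were higher and 0 lower, with differences from -0.125 to 0.092.

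The partner protein Hic-5 is encoded by Tgfb1i1, at 6.01 ± 0.08 (SD, n = 6) for WT against 6.11 ± 0.10 (SD, n = 6) for cKO. The difference of 0.10 ± 0.05 did not pass (limma adjusted p = 0.521). Across 22 focal adhesion genes, Hic-5 included, 0 rose and 1 fell, beside 0.299% higher and 0.429% lower over all probe sets. The 1 that fell was Vcl, the gene of vinculin, which couples adhesions to actin. Vcl read 7.30, 7.27, 7.53, 7.42, 7.32 and 7.43 on the WT arrays and between 6.95 and 7.05 on the cKO arrays, so the groups did not overlap. The fall of 0.39 ± 0.04 (limma adjusted p = 0.00113) held in all 21 alternatives. Of 8 measured podocyte genes 0 passed, and their differences ran from -0.028 to 0.083.

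**Figure D2:**
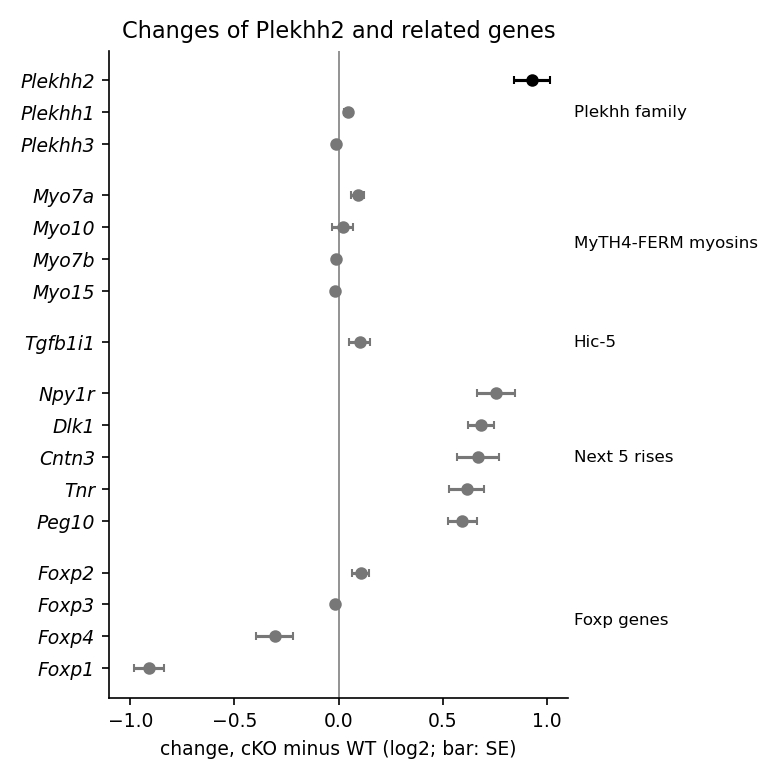
Difference in log2 level, cKO minus WT, with limma's SE, for Plekhh2 and its relatives, the MyTH4-FERM myosins, Hic-5 (Tgfb1i1), the next 5 rises and the Foxp genes; points are differences of group means and bars 1 SE. Plekhh2 stands at 0.93 and Foxp1 at -0.91, while Plekhh1 and Plekhh3 lie at 0.05 and -0.01.

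The chromosomal surroundings of Plekhh2 on chromosome 17 stayed within the test's limits. Thada, the measured gene on one side, averaged 6.70 in WT and 6.73 in cKO, a difference of 0.03 ± 0.05 (limma adjusted p = 0.884) that was -0.02 without cKO replicate 3. Dync2li1, a dynein light intermediate chain of cilia on the other side, averaged 6.29 and 6.22, a difference of -0.07 ± 0.03 (limma adjusted p = 0.473). Over the 10 nearest measured genes on each side, 0 of 20 were higher and 0 lower. Their differences ran from -0.193 for Mta3, a chromatin remodelling subunit, to 0.215 for Lrpprc, a mitochondrial RNA-binding protein, and 10 were positive. The RefSeq table places 1 gene, 4930500A05Rik, across Plekhh2, and no probe set was listed for it.

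**Figure D3:**
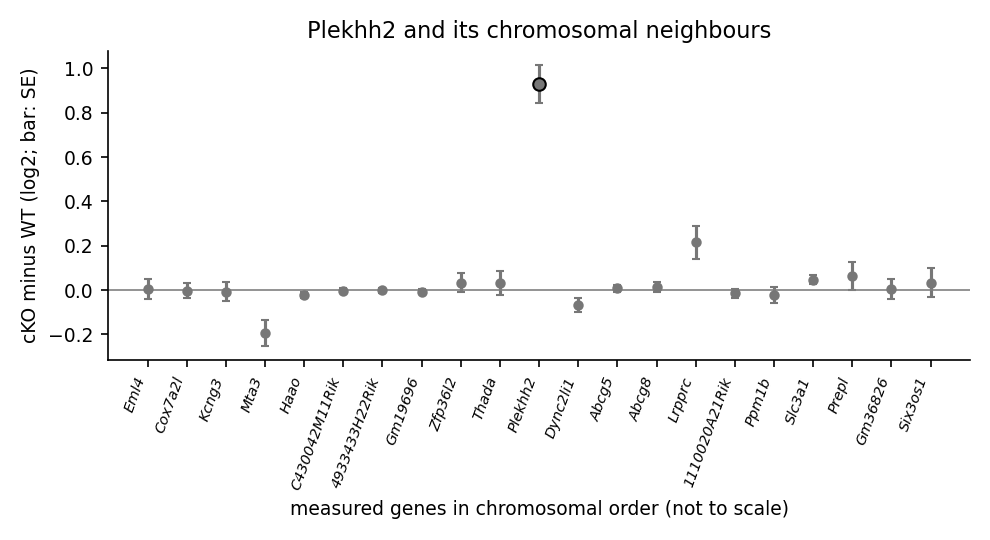
Difference in log2 level, cKO minus WT, with limma's SE, for Plekhh2 and the 10 nearest measured genes on each side of it in chromosomal order. Plekhh2 lies at 0.93 and the 20 neighbours between -0.193 and 0.215.

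After Plekhh2, the 5 next largest rises with a name were Npy1r, a neuropeptide Y receptor (0.76 ± 0.09), Dlk1, a non-canonical Notch ligand encoded by an imprinted gene (0.68 ± 0.06), the contactin Cntn3 (0.67 ± 0.10), the extracellular matrix glycoprotein Tnr (0.62 ± 0.08) and the imprinted retrotransposon-derived gene Peg10 (0.59 ± 0.07). They were picked by the size of their rise among genes past the threshold, a choice that favours groups without overlap. In each of them every cKO array lay above every WT array. The share of all probe sets with such a separation was not computed. Tnr, for example, lay between 7.89 and 8.48 in WT and between 8.62 and 8.76 in cKO. Dlk1 passed in all 21 alternatives. Under the replicate block, Npy1r, Cntn3, Tnr and Peg10 missed the threshold, with a limma adjusted p of 0.0718, 0.0922, 0.0793 and 0.0535. Cntn3 also missed it with the cortical mean as a covariate (limma adjusted p = 0.0742).

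Of these 5, Dlk1 moved with Plekhh2 from embryo to embryo in both groups. Its WT levels were 6.65, 6.63, 6.43, 6.43, 6.27 and 6.47, with the same 2 embryos on top as for Plekhh2. Its cKO levels were 7.26, 7.06, 7.23, 7.11, 7.21 and 7.12, and cKO replicate 2 was again the lowest. Within WT, r was 0.837 (exact permutation p = 0.0458) and rho 0.771 (exact permutation p = 0.103). Within cKO, r was 0.819 (exact permutation p = 0.0278) and rho 0.886 (exact permutation p = 0.033). Both rested on the extreme embryos: without the 2 arrays farthest from the median, r was 0.311 in WT and 0.161 in cKO. Fitted over both groups at once, Dlk1 changed by 0.59 ± 0.13 (SE) log2 units per unit of Plekhh2 within a group, with a 95% interval from 0.30 to 0.87. After adjustment over all probe sets it did not pass (limma adjusted p = 0.863).

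The other 4 rises gave less regular values. For Npy1r r was 0.117 in WT and 0.103 in cKO, for Peg10 0.655 and -0.120, for Tnr 0.575 and 0.133, and for Cntn3 0.537 and 0.769. In all, 86 relations with Plekhh2 were computed, over 18 genes and 25 list means in each group. In 3 of them the exact permutation p of r was below 0.05, and in 0 after Benjamini-Hochberg adjustment, where the smallest adjusted p was 0.872. Besides the 2 of Dlk1, the third was the mean of 8 choroid plexus and ependyma genes within WT, at an r of -0.862 (exact permutation p = 0.0264) and a rho of -0.943, with -0.731 left without the 2 farthest arrays. In cKO the same list had an r of 0.330. Its mean was 5.61 to 5.70 on the WT arrays, below the array median of 5.71, and 5.62 to 6.22 on the cKO arrays. The mean of the 9 direct-pathway neuron markers had an r of 0.806 in cKO (exact permutation p = 0.0653) and -0.109 in WT. The smallest p that 6 arrays allow is 0.00139.

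The genes that follow Plekhh2 were then sought across the whole table. With genotype and the Plekhh2 level in one limma fit, 0 of the other 25427 probe sets (0%) had a slope that passed an adjusted p of 0.05, and the smallest adjusted p was 0.760. At an unadjusted p under 0.05 there were 1002 (3.94%), of which 499 followed Plekhh2 and 503 opposed it. A slope that differed between genotypes was found for 0 probe sets (0%), with a smallest adjusted p of 0.819 and 1184 (4.66%) at an unadjusted p under 0.05. The median SE of a slope was 0.155 log2 units per unit of Plekhh2 among probe sets above the median level, which shows how coarsely 12 arrays place a slope.

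Genes were nevertheless ranked by their r with Plekhh2 inside each group, among 11107 named genes above the median level. These r values chose the genes and are given as descriptions. Several of the genes named below lay close to the array median of 5.71, where RMA leaves little room to see a change. Examples in WT are Zfp758 (mean 5.73, SD 0.088), Iho1 (5.70, SD 0.030) and Stard4 (5.77, SD 0.040). Over all probe sets, the smallest Benjamini-Hochberg adjusted exact permutation p of r was 0.999 in WT and 0.815 in cKO. In WT, 255 genes (2.30%) reached an r of at least 0.8 and 201 (1.81%) one of -0.8 or below. In cKO these were 297 (2.67%) and 407 (3.66%).

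Closest to Plekhh2 within WT was Zfp758, a zinc finger gene, at an r of 0.991. It read 5.80, 5.86, 5.66, 5.76, 5.66 and 5.65, so that WT replicates 1 and 2 were high and replicates 3, 5 and 6 low, as for Plekhh2. Dock11, an activator of the small GTPase Cdc42, followed at 0.988, with 8.46, 8.52, 8.25, 8.39, 8.26 and 8.28. The cytokine gene Il18 (0.981), Hsdl2 (0.980), Ankrd39 (0.978), the X-linked chromatin gene Phf6 (0.973), the meiotic gene Iho1 (0.972) and the helicase gene Ddx59 (0.971) completed the 8 highest. In cKO these 8 spread from -0.878 for Ankrd39 to 0.611 for Dock11, and 3 of 8 were positive.

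Opposite to Plekhh2 within WT were Rflna and Spns2, a sphingosine-1-phosphate transporter, both at -0.985. Then came the lipid transfer gene Stard4 (-0.979), Atpaf2, an assembly factor of ATP synthase (-0.968), Arhgef2, a microtubule-bound activator of RhoA (-0.968), Abcb8 (-0.967), AW209491 (-0.962) and the matrix Gla protein gene Mgp (-0.955). Arhgef2 read 9.53, 9.52, 9.69, 9.67, 9.74 and 9.72 in WT, the exact reverse of the order of Plekhh2. In cKO the r of Arhgef2 was 0.351, that of Abcb8 0.654 and that of AW209491 0.778.

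Within cKO a different set stood closest. Anapc15, a subunit of the anaphase-promoting complex, had an r of 0.993 and read 6.30, 6.01, 6.30, 6.10, 6.23 and 6.28, lowest in replicate 2 and next lowest in replicate 4, as for Plekhh2. In WT its r was -0.306. It was followed by Abtb1 (0.980), the histone gene H2bc21 (0.969), the Mediator subunit gene Med12l (0.966), Nifk (0.964), Nae1, a subunit of the NEDD8-activating enzyme (0.960), Snx11 (0.956) and the diacylglycerol kinase gene Dgkk (0.955). The r of these 8 in WT ran from -0.306 to 0.564, with 4 of 8 positive.

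The lowest r within cKO was that of Zbtb7a, a transcriptional repressor gene, at -0.997. Its cKO levels were 5.86, 6.05, 5.84, 5.95, 5.88 and 5.87, highest in replicate 2, while its r in WT was 0.578. Cela2a (-0.993), Prorsd1 (-0.989), Dnaaf5 (-0.982), the translation regulator gene Bzw1 (-0.980), the mitochondrial dehydrogenase gene Aldh1b1 (-0.980), the neuronal calcium sensor gene Hpcal4 (-0.978) and Ociad1 (-0.978) followed. In WT 3 of these 8 had a positive r.

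Followers chosen in one group had r values in the other group close to those of all genes. The 50 genes closest to Plekhh2 in WT had an r of at least 0.916, and the next gene had 0.914. In cKO these 50 ran from -0.878 to 0.838 with a median of 0.027, and 27 of 50 were positive, where all ranked genes had a median of -0.011 and 49.2% positive. The 50 closest in cKO, at 0.912 or above, had a median r of -0.042 in WT with 22 of 50 positive, against 0.014 and 51.2% over all. For the 50 most opposed in WT the median in cKO was -0.034, and for the 50 most opposed in cKO the median in WT was 0.091. Over the 11107 genes, r in WT and r in cKO had a correlation of -0.056, a description across genes that share arrays and are not independent.

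**Figure D4:**
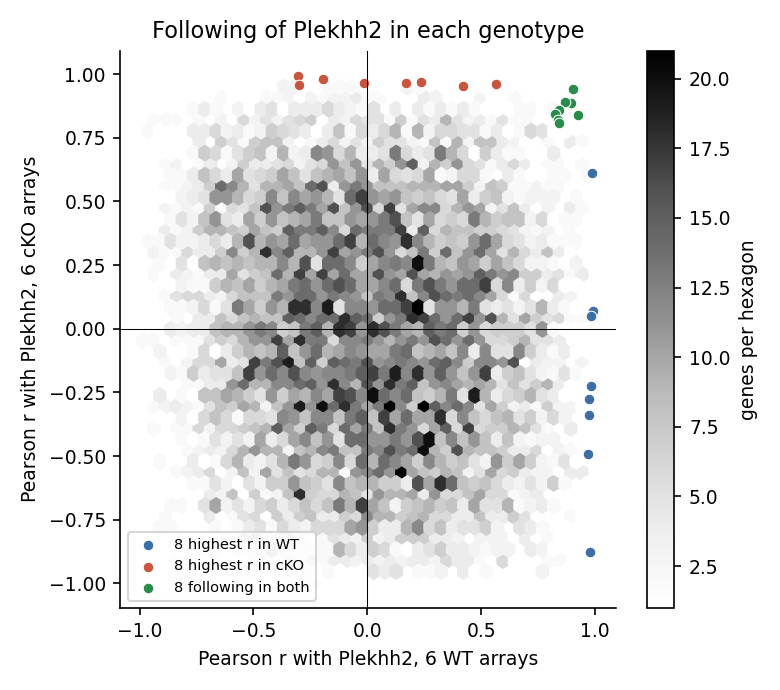
Pearson r with Plekhh2 over the 6 WT arrays (horizontal) and over the 6 cKO arrays (vertical). Grey hexagons hold named genes above the median level, darker where there are more, and coloured points mark the 8 genes with the highest r in WT, in cKO and in both. The cloud has no slope (-0.056 across 11107 genes), and 8 genes lie at 0.8 or more in both groups.

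An r of at least 0.8 in both groups was found for 8 genes, 3.14% of the WT list against 2.67% of all ranked genes, and 2.69% of the cKO list against 2.30% of all. They were Snrpa1, a protein of the U2 snRNP of the spliceosome, Cstf3, a subunit of the cleavage stimulation factor that acts in polyadenylation, the nucleolar gene Nol8, the mitochondrial tRNA-modifying enzyme gene Osgepl1, the Rap activator gene Rapgef6, Crebrf, the keratin gene Krt10 and Dlk1. Of these 8, Dlk1 alone passed the genotype test, and the other 7 had differences from -0.08 to 0.08. Snrpa1 had the highest values, at 0.905 in WT and 0.941 in cKO. It read 7.87, 7.94, 7.81, 7.86, 7.83 and 7.77 in WT and 8.02, 7.66, 7.97, 7.84, 7.89 and 7.90 in cKO, so its group ranges overlapped. Its slope was 0.50 ± 0.10 log2 units per unit of Plekhh2 (limma adjusted p = 0.760).

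By the p of the slope itself, the closest genes were Abhd14a, Slc6a17, a neurotransmitter transporter of synaptic vesicles, Rapgef6, the neurotrophic factor gene Metrn, Krt10 and Rab40b, all with a limma adjusted p of 0.760. Slc6a17 read 8.18, 8.13, 8.36, 8.18, 8.32 and 8.39 in WT and 8.05, 8.18, 8.04, 8.22, 8.05 and 8.13 in cKO, against the order of Plekhh2, with r values of -0.941 and -0.767. For Metrn they were -0.932 and -0.792.

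The reverse pattern, an r of -0.8 or below in both groups, was also found for 8 genes, 3.98% of the WT list against 3.66% of all and 1.97% of the cKO list against 1.81% of all. They were Abhd14a, Tmem132a, the homeobox gene Barx1, the small GTPase gene Rab40b, the ribosomal protein gene Rpl29, the antizyme gene Oaz2, Btbd2 and the phosphatase gene Pdxp. Rpl29 has many near-identical pseudogenes, so its probe set may read several loci. Abhd14a had r values of -0.860 and -0.928 and the slope of largest size relative to its error among all genes ranked, -0.87 ± 0.14 (limma adjusted p = 0.760). Its WT levels were 5.82, 5.73, 6.17, 5.89, 6.14 and 5.93 and its cKO levels were 5.87, 6.24, 5.90, 5.99, 5.87 and 5.95.

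Several of these values moved when the embryos with extreme Plekhh2 levels were left out. Without cKO replicate 2 alone, an omission chosen after seeing the data, the r within cKO of the 8 followers ran from -0.073 for Crebrf to 0.864 for Krt10, with 1 still at 0.8 or more. That of the 8 opposing genes ran from -0.892 for Rab40b to -0.042 for Pdxp, with 1 still at -0.8 or below. Dlk1 had 0.668 and Snrpa1 0.780 there. Without the 2 arrays farthest from the median Plekhh2 level, the r of the 8 followers in both groups ran from 0.260 to 0.829 in WT, with 1 still at 0.8 or more, and from -0.182 to 0.677 in cKO, with 0. For the 8 opposing genes it lay between -0.855 and 0.315 for WT and between -0.677 and 0.544 for cKO. Snrpa1 kept 0.750 and 0.677, whereas Rapgef6 had 0.829 in WT and -0.182 in cKO.

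**Figure D5:**
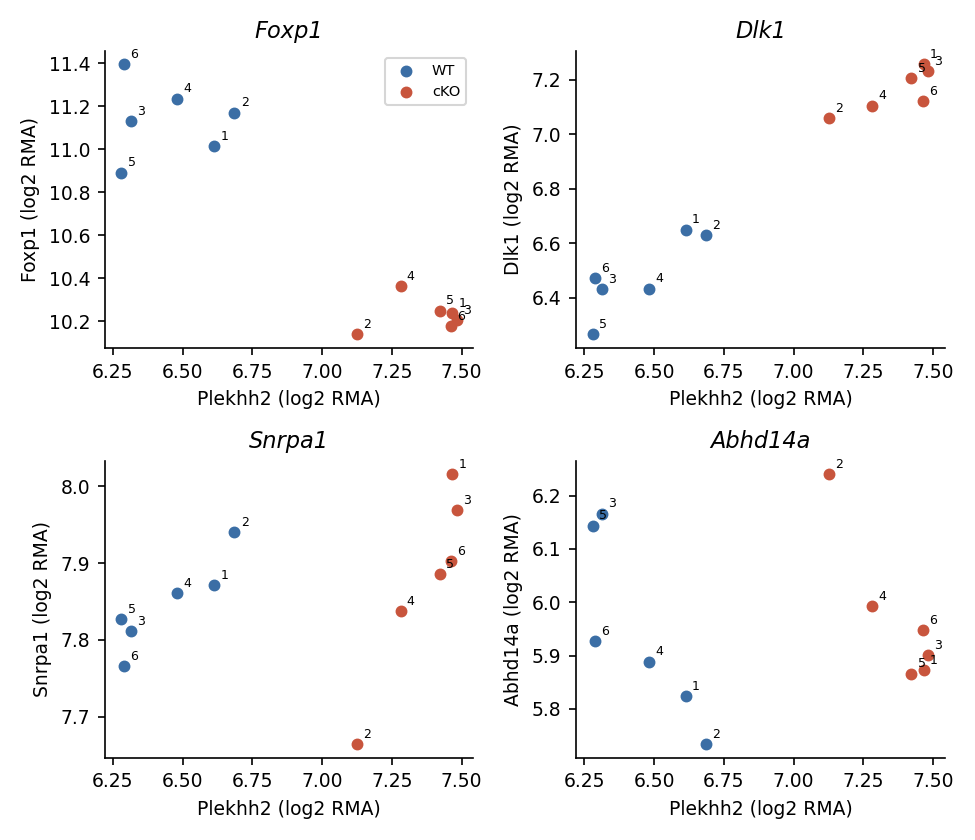
Level of Foxp1, Dlk1, Snrpa1 and Abhd14a (vertical, RMA log2, 1 panel each) against the Plekhh2 level (horizontal, RMA log2), 1 point per array with its replicate number, WT and cKO in different colours. Foxp1 has an r of -0.053 inside WT and 0.082 inside cKO, Dlk1 climbs with Plekhh2 inside both, Abhd14a descends, and cKO replicate 2 is the outermost cKO point of each panel along the Plekhh2 axis.

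The genes called in the genotype comparison were read for their r with Plekhh2 inside each group. The other 75 probe sets higher in cKO had a median r with Plekhh2 of 0.276 within WT, 55 of them positive, and of 0.103 within cKO, 42 positive. The 109 lower ones had -0.266 within WT, with 31 positive, and 0.172 within cKO, with 70 positive. Over all other probe sets the medians were 0.009 within WT and 0.006 within cKO, with 12885 and 12849 of 25427 positive.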

How the data were processed

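The deposited series table gave log2 expression values for 25428 probe sets on 12 arrays, made by the authors with RMA per the submitters' processing notes. The columns had a shared distribution: sorted values agreed within 0.000977, and within 0.00187 for cKO replicate 1. A change common to all genes is therefore not visible. Array model and probe definitions are not given in the sources used here; precision is limited by the number of arrays. The platform table named 24674 probe sets, 754 were unnamed and none had several symbols.

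Values were used as deposited. Differences, slopes on Plekhh2 with genotype in the fit (9 residual degrees of freedom) and slope differences were tested with limma 3.58.1 in R 4.3.3, two-sided, with Benjamini-Hochberg adjustment and a threshold of 0.05. Within groups, Pearson r and Spearman rho used all 720 pairings of 6 arrays. Fits were tested on simulated data. P-values measure the spread between these embryos.

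The gene, the 25 lists (259 of 278 symbols measured) and the rules were chosen with earlier results of these data known. Ranked genes had a symbol, a mean level above the median, and no predicted-gene, receptor-cluster or small-RNA name. Named were the 8 highest and 8 lowest by r in WT, in cKO and in both, the 6 with the smallest slope p, the next 5 rises, relatives, partners, neighbours and called list members. Alternatives were renormalization, a dim filter, other priors and weights, covariates for sex, cortex and array structure, the replicate block, and leaving out arrays.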

Additional observations from a re-analysis of the deposited data

Results flagged for a closer look

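Over 80 named genes in each group, 160 sets of 6 arrays were examined for 1 embryo far from the other 5, and 17 were found, where chance gives about 1 in 20. The measure is the embryo's gap to its nearest neighbour over the range of its group; the limit is Dixon's 95% critical value. Many of these genes were chosen for their r with Plekhh2, which itself is lowest on cKO replicate 2, so flags on that embryo share this choice.

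On cKO replicate 2, 8 genes stood apart. Nae1 was low, at 7.55 with the next embryo at 7.71 (a gap share of 0.682). Rapgef6 read 7.42 against 7.53 (0.64) and Crebrf 6.46 against 6.67 (0.68), both low. Zfp521, a marker of direct-pathway neurons, was low at 9.50 against 9.79 (0.68). High were Abhd14a at 6.24 against 5.99 (0.661), Rpl29 at 7.32 against 6.73 (0.667), Pdxp at 7.29 against 7.17 (0.63) and Metrn at 6.25 against 6.08 (0.635).

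On WT replicate 6, Frmd6 was high at 7.18 against 6.80 (0.735), Cxcr4 at 7.48 against 7.18 (0.682) and Myo10 at 6.86 against 6.71 (0.649), while Npy1r was low at 6.40 against 6.78 (0.659). Elsewhere in WT, Dnaaf5 was low on replicate 1 at 6.34 against 6.52 (0.627), Prkcd was low on replicate 4 at 6.22 against 6.36 (0.636) and Ociad1 was high on replicate 5 at 11.04 against 10.98 (0.66). In cKO, Il18 was high on replicate 4 at 6.54 against 6.38 (0.676) and Ikzf1 was high on replicate 1 at 6.28 against 6.11 (0.688). Plekhh2 itself was not among them in either group.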

How the results depend on the processing

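The Plekhh2 difference lay between 0.859 and 0.980 in all 19 alternatives, and between 0.898 and 0.980 when single embryos were left out. The count of probe sets that differed between genotypes was 185, and 106 to 227 with single embryos left out (106, 109 and 117 without cKO replicate 2, 5 or 3). It was 278 (118 higher) with dim probe sets left out, 67 with the cortical mean as a covariate, and 124 without WT replicates 3 and 6, chosen after seeing the data. Counts of slopes and slope differences were 0 in all 23 and 18 alternatives, with smallest adjusted p values of 0.0555 (Abhd14a's slope without WT replicate 6) and 0.0584 (a slope difference without cKO replicate 4).

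The median r in cKO of the WT followers, 0.027, was -0.143 by Spearman's rho, -0.153 for 20 genes and -0.221 to 0.10 with single embryos left out. The median r in WT of the cKO followers, -0.042, was -0.128 to 0.153 with single embryos left out. The causes were not tested.

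No pairing by replicate number was seen: same-numbered deviations correlated at -0.23 to 0.16 and no embryo correlated best with its own number. These values cannot show whether same-numbered embryos shared a litter or batch, which the labels do not give. The replicate block also leaves the fit fewer degrees of freedom. With the replicate block 64 probe sets passed (24 higher, 40 lower), the Plekhh2 difference was 0.93 and 0 slopes passed. For the 18 named genes past the threshold in the genotype comparison, 378 alternative values were computed: 301 kept the call, 77 missed the threshold and 0 reversed. Genes near the array median of 5.71, such as Plekhh1 and Plekhh3, have little room to show a change.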
